A study of Mus musculus with 9 samples.

Results

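The mitochondrial ribosomal proteins are the nuclear-encoded subunits of the ribosome that works inside mitochondria. Members were the probe sets whose single gene symbol on the array's platform table begins with Mrpl or Mrps followed by a number, which gave 156 of 45101 probe sets and 76 of 18193 named genes. Of these probe sets, 131 passed a filter on signal, and each of the 76 genes kept at least 1. The proteins of the large subunit accounted for 49 genes (Mrps30 and Mrps18a, which sit in the large subunit despite their names, among them) and those of the small subunit for 26. Mrps36 was counted apart, because its product is a component of the 2-oxoglutarate dehydrogenase complex.

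The samples were spermatogonia, the mitotic germ cells of the testis, from adult Balb/C mice, measured on 9 Affymetrix arrays. There were 3 arrays from mice on a vitamin A-deficient (VAD) diet for 18 weeks, 3 from mice on that diet for 25 weeks and 3 from mice on a normal diet (control). Per the labels' protocols, testes of 2 mice were dissociated together, the cells were plated overnight, and germ cells in suspension were then fractionated by sedimentation, so an array reads pooled animals. The labels state neither the age of the control mice nor whether the 3 arrays of a group came from separate preparations, so the p-values measure only the spread between these arrays.

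The mitochondrial ribosome translates the few proteins encoded by mitochondrial DNA, all of them core subunits of the respiratory chain and the ATP synthase. Its RNAs are transcribed in the mitochondrion, whereas its proteins are made in the cytosol from nuclear genes and imported. Many of these proteins descend from bacterial ribosomal proteins, and the others were gained in the mitochondrial lineage. Vitamin A is the precursor of retinoic acid, the signal that moves undifferentiated spermatogonia into differentiation.

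The arrays were uneven. Replicate 3 of the VAD 25-week group and replicate 3 of the control group were dim, with trimmed mean deposited signals of 23.3 and 23.0, against 55.6 to 186 on the other 7 arrays. All tests therefore carried a term for this dim pair. A model without the term called 0 probe sets in every comparison. Replicates 1 and 2 of the VAD 25-week group carried bacterial poly-A control signals of 270.2 and 337.6, against 4.97 to 10.6 on the other arrays. Those 2 arrays also had the highest ratios of 3′ to 5′ actin signal, 7.82 and 7.92, against 3.32 to 5.74 elsewhere. Their ratios for Gapdh were 3.77 and 4.05, within the 3.08 to 5.61 of the other arrays, the highest being on the dim VAD 25-week array. Counts at 25 weeks without the dim pair are given with the calls, the groups and the lists. Without the poly-A-rich arrays, the fitted change against control is the dim VAD 25-week array minus the dim control array. No counts are given for that fit, and the part of those 2 arrays in the results was not tested.

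The label of the cells was set against marker genes. Of 9 genes of undifferentiated spermatogonia, 4 passed the filter, and Sall4, Lin28a and Ret were below it, while all 6 genes of differentiating spermatogonia passed. The summed normalized signal of the undifferentiated genes was 526 to 640 on VAD 18-week arrays and 639 to 740 on VAD 25-week arrays, against 319 to 380 on control arrays. Id4, the brightest of the 4 kept genes on every array, weighed most in that sum. It alone was called at 25 weeks, at 1.16 (log2, limma adjusted p = 0.000626). Of the 4 changes, 3 were positive and 1 was negative, that of Gfra1 at -0.65, with every VAD 25-week array below every control array. The summed normalized signal of the differentiating genes was 1222 to 1271 at 18 weeks and 595 to 831 at 25 weeks, against 855 to 1735 in controls. Dmrtb1, the brightest of these 6 genes on every array, weighed most in that sum and fell by 1.18 at 25 weeks (log2, limma adjusted p = 0.000174). Kit rose by 1.34 (log2, limma adjusted p = 0.0188). The median log2 change of the 6 genes at 25 weeks was 0.43, with 4 positive and 2 negative values. Markers of later germ cells, which the label of spermatogonia does not cover, were present on every array, and all 8 spermatocyte genes and all 8 spermatid genes passed the filter. Their sums were 25862 to 26397 at 18 weeks and 19654 to 23382 at 25 weeks, against 19843 to 25847 in controls, for spermatocytes. For spermatids they were 6683 to 11399 at 18 weeks and 3899 to 14042 at 25 weeks, against 5916 to 14745 in controls. At 25 weeks 3 spermatocyte genes rose and 2 fell (62.5%), and 0 spermatid genes rose and 1 fell (12.5%), beside 14.8% of all probe sets called. Markers of Sertoli cells, the somatic cells that surround germ cells, were present in every group and differed between them. The summed normalized signal of the 14 Sertoli genes on the array was 779 to 2468 on VAD 18-week arrays and 1003 to 1822 on VAD 25-week arrays, against 220 to 308 on control arrays. Of 13 such genes past the filter, 7 rose and 0 fell at 18 weeks (53.8%, beside 1.46% of all probe sets). At 25 weeks 10 rose and 0 fell (76.9%, beside 14.8%), and 8 and 0 without the dim pair (61.5%, beside 15.7%). Gata4 had the only negative change, -0.38 at 18 weeks and -0.98 at 25 weeks (log2, limma adjusted p = 0.0764 at 25 weeks). Every VAD 25-week array was below every control array for Gata4, named after its values were seen. Summed signals of 4 Leydig cell genes were 119 to 530 at 18 weeks and 271 to 301 at 25 weeks, against 32.4 to 132 in controls. Those of 6 leukocyte genes were 87.5 to 130 at 18 weeks and 173 to 208 at 25 weeks, against 58.5 to 97.1 in controls. In such bulk samples, fewer cells of a type and less RNA per cell cannot be told apart. The part of these markers in the results for the mitochondrial ribosomal proteins was not tested.

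At 25 weeks of the VAD diet, the mitochondrial ribosomal protein genes did not move as a group. Of the 76 genes, 7 rose and 5 fell against control (limma, Benjamini-Hochberg adjusted p under 0.05 over all probe sets). These 12 genes were 15.8% of the members, beside 14.8% of all 27022 probe sets (8.51% higher and 6.29% lower). Counted as the members were, with 1 probe set for each of all 13616 kept genes, 17% of genes were called. The median log2 change of the members was 0.01, beside -0.01 for all probe sets. Their changes had an interquartile range of 0.53, against 0.77 for all probe sets and 0.76 for all genes (log2). At 18 weeks it was likewise narrower, 0.41 against 0.59 for all probe sets. The sets were not matched for signal level, so the narrowness is a description. Members' values at 25 weeks ran from -1.05 for Mrps11 to 1.43 for Mrps2. In limma, 21 members (27.6%) had an unadjusted p under 0.05, beside 30.1% of all probe sets and 32.7% of all genes. Without the dim-pair term 0 members passed, and 5 had an unadjusted p under 0.05, beside 11.9% of all probe sets. Other scalings moved the split between higher and lower calls. It was 7 higher and 1 lower with each array centred on its median (10.5% of members, beside 13.4% of all probe sets), and 33 higher and 0 lower with the signals scaled as deposited (43.4% of members, beside 38.7% of all probe sets). On the deposited scale the median change of all probe sets was 0.92.

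**Figure D1:**
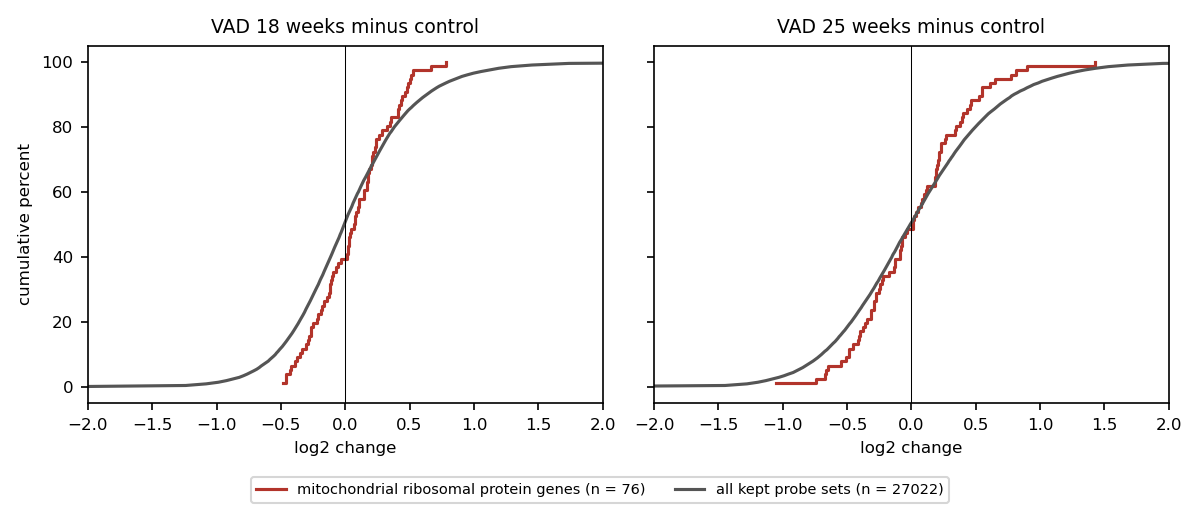
Cumulative distribution of the log2 change against control at 18 weeks (left) and 25 weeks (right) of the VAD diet. The red line holds the 76 mitochondrial ribosomal protein genes, 1 probe set each, and the grey line all 27022 kept probe sets. The red line crosses the middle close to the grey one and is steeper at both times. The members' interquartile range was 0.41 against 0.59 for all probe sets at 18 weeks, and 0.53 against 0.77 at 25 weeks, without matching for signal level.

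Mrps2, a small-subunit protein homologous to bacterial S2, had the largest change. Its normalized log2 signal was 7.14, 7.17 and 7.45 on VAD 25-week arrays, against 5.85, 5.97 and 5.64 on control arrays, with 6.61, 6.38 and 6.81 at 18 weeks. All VAD arrays of both times lay above all control arrays, and those of 25 weeks above those of 18 weeks. The change at 25 weeks was 1.43 ± 0.19 (log2, SE, limma adjusted p = 0.00145, n = 3 per group). As deposited, the Mrps2 signals were 404.9, 314.9 and 58.7 at 25 weeks, against 43.6, 48.6 and 20.5 in controls, so the dim arrays of the 2 groups differed in the same direction as the bright ones.

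Mrpl3, whose bacterial homologue reaches towards the peptidyl transferase centre, had the next largest rise among the called genes. It measured 8.78, 8.83 and 8.55 at 25 weeks, against 7.90, 7.84 and 7.72 in controls (normalized log2 signal), and 8.50, 8.41 and 8.27 at 18 weeks. The control arrays were again below every VAD array. Mrpl3 rose by 0.90 ± 0.13 at 25 weeks (log2, SE, limma adjusted p = 0.00175). Mrps9, whose bacterial homologue touches the tRNA in the peptidyl site with its tail, measured 8.14, 7.97 and 7.39, against 6.93, 7.18 and 6.94 in controls. These groups did not overlap, although the dim VAD array was much closer to the controls than the other VAD arrays were. The change was 0.82 ± 0.18 (log2, SE, limma adjusted p = 0.0115).

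The 4 other genes that rose belong to the large subunit. Mrpl27, whose bacterial homologue also lies at the peptidyl transferase centre, measured 6.81, 7.20 and 6.19 at 25 weeks, against 6.54, 6.32 and 5.01 in controls. Mrpl15, the counterpart of bacterial L15, measured 7.68, 7.67 and 9.26, against 7.04, 7.38 and 8.34. Mrpl44, a mitochondria-specific protein with a ribonuclease III-like fold, measured 7.81, 7.85 and 9.39, against 7.31, 7.40 and 8.71. In these 3 genes the dim arrays stood apart in both groups, so the groups overlapped, while the VAD array was above the control array within the dim pair and both bright VAD arrays were above both bright control arrays. Mrpl24, a protein at the mouth of the exit tunnel, measured 10.45, 10.49 and 9.20, against 9.97, 9.99 and 8.87. The log2 changes were 0.78 ± 0.21 for Mrpl27 and 0.61 ± 0.17 for Mrpl15, with limma adjusted p = 0.0320 and 0.0301. They were 0.54 ± 0.14 for Mrpl44 and 0.43 ± 0.12 for Mrpl24, with limma adjusted p = 0.0272 and 0.0342.

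Among the genes that fell, Mrps11, a small-subunit protein whose bacterial homologue lines the path by which the mRNA leaves, changed most. It measured 6.12, 6.43 and 3.13 at 25 weeks, against 7.34, 7.18 and 4.31 in controls, and 7.02, 6.94 and 6.54 at 18 weeks (normalized log2 signal). The dim arrays were far below the others in both groups, and within each kind of array VAD was lower. Mrps11 fell by 1.05 ± 0.20 on the log2 scale (SE, limma adjusted p = 0.00717). Its deposited signals were 187, 183 and 3.53 at 25 weeks, against 144, 129 and 9.82 in controls, so on the bright arrays the unscaled VAD signals were the higher ones. The fall is thus one relative to each array's whole distribution, and on the deposited scale the change was -0.03, beside 0.92 for all probe sets.

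The other 4 falls were in the large subunit, and all 4 turned positive on the deposited scale, at values below the 0.92 of all probe sets. Mrpl55, the counterpart of bacterial L31, measured 6.82, 6.60 and 6.04 at 25 weeks, against 7.44, 7.34 and 6.92 in controls. Mrpl18, the counterpart of a bacterial protein that binds the small RNA of the large subunit, measured 7.13, 7.24 and 6.74, against 7.82, 7.62 and 7.61. Neither gene's groups overlapped, and the changes were -0.74 ± 0.17 for Mrpl55 and -0.65 ± 0.16 for Mrpl18 (log2, SE, limma adjusted p = 0.0160 and 0.0190). Mrpl32, which in yeast is matured by a protease of the inner membrane before it can join the ribosome, measured 7.33, 7.27 and 5.67, against 7.94, 7.81 and 6.53. Mrpl35 measured 8.54, 8.90 and 7.87, against 9.20, 9.03 and 8.55. The groups of these 2 genes overlapped through the dim control array, and the changes were -0.67 ± 0.15 for Mrpl32 and -0.49 ± 0.14 for Mrpl35 (log2, SE, limma adjusted p = 0.0135 and 0.0338).

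**Figure D2:**
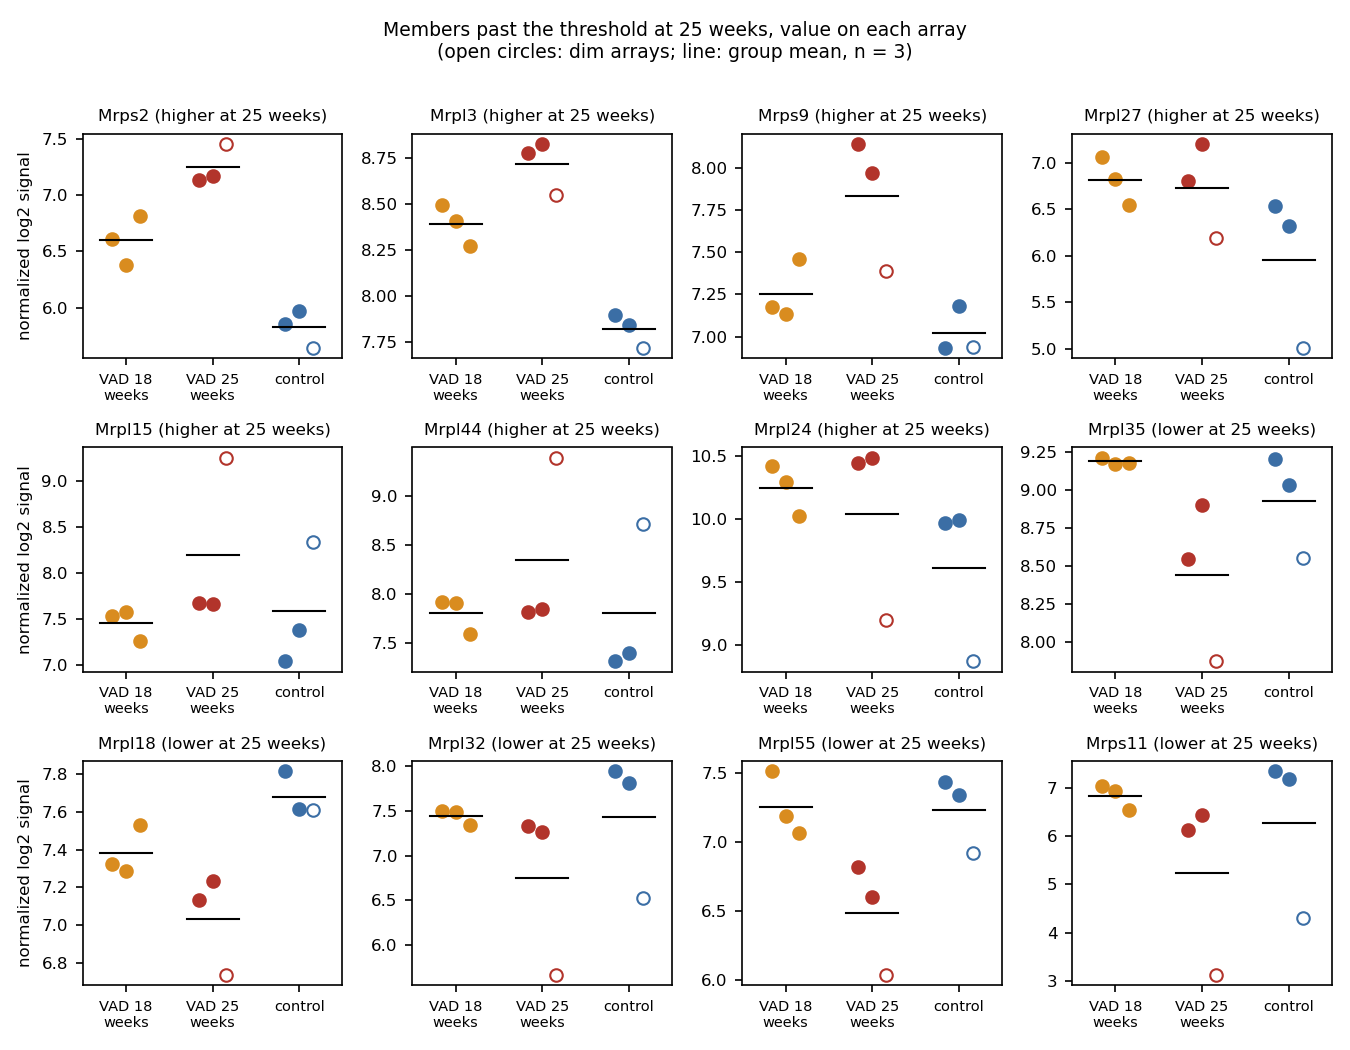
Normalized log2 signal on each array for the 12 mitochondrial ribosomal protein genes past the threshold at 25 weeks, by group (VAD 18 weeks, VAD 25 weeks, control). Open circles are the 2 dim arrays and lines are means of 3 arrays. In all 12 genes the dim VAD array differs from the dim control array in the same direction as the bright arrays do, and 4 of the 5 genes drawn as lower (all but Mrps11) turn positive on the deposited scale.

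Most members read lower on the dim arrays after normalization. The fitted offset of the dim pair had a median of -0.57 over the 76 members, beside -0.18 over all probe sets. It was negative for 57 members (75%, beside 56.4% of all probe sets). All 12 called genes had the same sign within the dim pair as among the bright arrays, compared with 45 of the 76 members. The test uses both kinds of array, so this sameness is a description of the calls. The groups did not overlap for 5 of the 12. Among all members, 5 genes (6.58%) had every VAD 25-week array above every control array, beside 9.13% of all probe sets, and 4 (5.26%) had every VAD array below, beside 7.12%. The genes outside the 12 in these counts were Mrpl49 and Mrps33 on the higher side and Mrpl20 and Mrps30 on the lower, named after their values were seen.

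Single arrays decided many of the calls. Mrps2, Mrpl3 and Mrps11 remained past the threshold whichever of the 9 arrays was left out, the highest adjusted p among these fits being 0.0400 in limma, for Mrps11. Mrpl32 and Mrpl55 were called in 7 of 9 such fits, Mrps9 in 6, Mrpl18 in 5, Mrpl15 and Mrpl24 in 4, and Mrpl27, Mrpl35 and Mrpl44 in 3. With either dim array left out, the term for the pair fits the other exactly, so 2 of the 9 fits come close to leaving out the pair and are not independent of each other. Without control replicate 1, 3 of the 12 genes were still called. Without VAD 25-week replicate 2, 4 were. Without both poly-A-rich arrays of the VAD 25-week group, the fitted change is the dim VAD array minus the dim control array. All 12 kept their direction in it, which only repeats the same sign within the dim pair given above. That fit is therefore no separate check of the calls. Without the dim pair 8 of the 12 were still called, among 15 members (19.7%, beside 15.7%).

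The upstream regions of the 3 genes called in every leave-one-out fit, and of Mrpl32, which starts close to a gene on the opposite strand that changed the other way, carry the results that follow. Each runs from 250 bases before to 50 bases after the annotated start in RefSeq on GRCm38.p6, 5′ to 3′ along the gene's strand. Capitals mark matches, on either strand, to CCGGAAG (recognised by ETS factors, GABP among them), to the core motif of NRF1 and to AAGATGGC (recognised by YY1). The NRF1 motif was matched with any base allowed where its capitals in the Mrpl32 window have their A. These factors are known for binding promoters of nuclear genes that serve mitochondria. The windows are Mrps2 on the plus strand at chr2:28467816-28468115, Mrpl3 on the plus strand at chr9:105053018-105053317, Mrps11 on the plus strand at chr7:78782881-78783180 and Mrpl32 on the minus strand at chr13:14612988-14613287.
Mrps2: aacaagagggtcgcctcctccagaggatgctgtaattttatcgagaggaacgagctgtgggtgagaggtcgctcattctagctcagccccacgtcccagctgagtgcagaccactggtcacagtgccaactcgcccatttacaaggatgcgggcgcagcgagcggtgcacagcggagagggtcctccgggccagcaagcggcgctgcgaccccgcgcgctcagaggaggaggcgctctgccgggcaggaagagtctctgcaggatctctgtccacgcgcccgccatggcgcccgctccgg
Mrpl3: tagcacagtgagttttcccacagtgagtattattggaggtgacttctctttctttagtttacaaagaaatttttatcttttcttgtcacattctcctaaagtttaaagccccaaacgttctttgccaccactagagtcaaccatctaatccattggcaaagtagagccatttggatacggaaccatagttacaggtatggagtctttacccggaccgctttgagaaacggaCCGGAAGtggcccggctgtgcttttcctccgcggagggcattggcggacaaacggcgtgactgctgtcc
Mrps11: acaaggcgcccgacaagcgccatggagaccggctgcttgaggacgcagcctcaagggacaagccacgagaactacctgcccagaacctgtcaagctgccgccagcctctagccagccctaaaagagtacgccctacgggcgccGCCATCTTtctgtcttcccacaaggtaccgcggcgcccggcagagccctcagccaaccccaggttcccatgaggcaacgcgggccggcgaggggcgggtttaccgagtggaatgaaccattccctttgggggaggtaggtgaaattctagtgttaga
Mrpl32: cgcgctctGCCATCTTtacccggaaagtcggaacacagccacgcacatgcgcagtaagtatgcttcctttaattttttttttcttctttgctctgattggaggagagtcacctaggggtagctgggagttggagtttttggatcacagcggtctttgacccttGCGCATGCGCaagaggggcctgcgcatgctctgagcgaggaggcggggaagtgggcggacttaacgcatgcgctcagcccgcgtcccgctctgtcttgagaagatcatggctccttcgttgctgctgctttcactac

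The Mrps2 window held none of the 3 motifs, that of Mrpl3 held the ETS motif and that of Mrps11 the YY1 motif. The Mrpl32 window held both the NRF1 and the YY1 motif. That of Mrpl55, which fell most after Mrps11 and is not printed, held none of the 3. RefSeq's table held 73 windows for 67 of the 76 members. The ETS motif was in 34.2% of these windows, beside 13.0% of the 18010 windows of genes on the array and 8.86% of all 32851 windows. The NRF1 motif, with its free base, was in 16.4%, beside 7.45% and 4.60%. The YY1 motif was also in 16.4%, beside 3.39% and 2.75%. The exact NRF1 letters capitalised in the Mrpl32 window were in 4.11% of the members' windows, beside 1.54% and 0.971%. At least 1 of the 3 motifs, NRF1 with its free base, was in 56.2% of the members' windows, beside 21.4% and 14.7%. The cAMP response element TGACGTCA was in 2.74%, beside 2.50% and 1.79%. An ETS motif can run into a YY1 motif, since the one ends with the letters AAG that open the other. A match is a description of letters and not a binding site, and a window without one lacks only these letters. The median GC content was 58.7% in the members' windows, beside 58.3% on the array and 52.7% in all.

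At 18 weeks of the VAD diet, 0 of the 76 genes passed the threshold, beside 1.46% of all probe sets (1.32% higher and 0.133% lower). In limma, 13 members (17.1%) had an unadjusted p under 0.05, beside 16.5% of all probe sets and 18% of all genes. Without the dim-pair term 4 had one, beside 7.23% of all probe sets. The members' median log2 change was 0.07, beside -0.01 for all probe sets, and became -0.03 after median centring. All VAD 18-week arrays lay above all control arrays in 13 genes (17.1%, beside 11.8% of all probe sets) and below them in 3 (3.95%, beside 7.57%). The smallest p belonged to Mrps2, at 0.78 ± 0.20 (log2, SE, limma adjusted p = 0.0843). Mrpl3 followed at 0.50 ± 0.13 (limma adjusted p = 0.0916) and passed the threshold without the dim pair, at 0.52 with limma adjusted p = 0.0484, as the only member called in that fit, which called 3.98% of all probe sets. Mrpl44 had 0.49 (limma adjusted p = 0.143), Mrps18c, the member of the S18 trio that takes the place of the bacterial protein, 0.46 (adjusted p = 0.157) and Mrpl32 -0.48 (adjusted p = 0.163).

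The log2 changes at both times are given side by side, since they share the control arrays. Mrps2 had 1.43 at 25 weeks and 0.78 at 18 weeks, and Mrpl3 had 0.90 and 0.50. Mrps9 had 0.82 at 25 weeks and 0.11 at 18 weeks. Mrpl27 had 0.78 and 0.48, Mrpl15 0.61 and 0.32, Mrpl44 0.54 and 0.49, and Mrpl24 0.43 and 0.24. Among the genes lower at 25 weeks, Mrps11 had -1.05 and -0.46 at 18 weeks, Mrpl55 -0.74 and -0.17, Mrpl32 -0.67 and -0.48, Mrpl18 -0.65 and -0.39, and Mrpl35 -0.49 and 0.02. Whether a change differs between the times is the comparison of the VAD groups themselves. In it, 0 members passed, as did 0% of all probe sets. In limma 12 members (15.8%) had an unadjusted p under 0.05, beside 11.6% of all probe sets and 13% of all genes. Without the dim-pair term 4 members had one, beside 3.82% of all. All VAD 25-week arrays lay below all VAD 18-week arrays in 19 genes (25%, beside 9.79% of all probe sets) and above them in 3 (3.95%, beside 7.33%). On the normalized scale the median of the members was 6.97, 7.12 and 6.52 on the VAD 25-week arrays, against 7.27, 7.13 and 7.17 on the VAD 18-week arrays. All VAD 25-week medians were thus below all VAD 18-week medians, with the dim array lowest, although 7.12 and 7.13 were nearly equal. The members' median change was -0.04 with the dim-pair term and turned to 0.16 after centring on medians and to 0.84 with deposited scaling.

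The smallest p in that comparison was that of Mrpl2, whose bacterial homologue is needed for peptidyl transfer. It measured 6.90, 7.33 and 6.48 on VAD 25-week arrays, against 8.09, 7.70 and 7.86 on VAD 18-week arrays, with 7.43, 7.37 and 7.04 in controls. The VAD 18-week arrays were the highest of the 3 groups and did not overlap with either other group. The difference between the VAD groups was -0.81 (log2, limma adjusted p = 0.163). Mrpl47, a protein near the exit tunnel, had 0.55 (adjusted p = 0.179 in limma), Mrps9 0.71 (adjusted p = 0.192), Mrps18b -0.58 (adjusted p = 0.201) and Mrpl35 -0.51 (adjusted p = 0.212). Without the dim pair, Mrps9 and Mrpl12 passed in this comparison, at 0.80 and -0.70 on the log2 scale (limma adjusted p = 0.0408 and 0.0393), among 2 higher and 1 lower members, beside 1.67% of all probe sets. Without the poly-A-rich arrays the VAD 25-week group holds only its dim array in this comparison, so no counts are given.

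**Figure D3:**
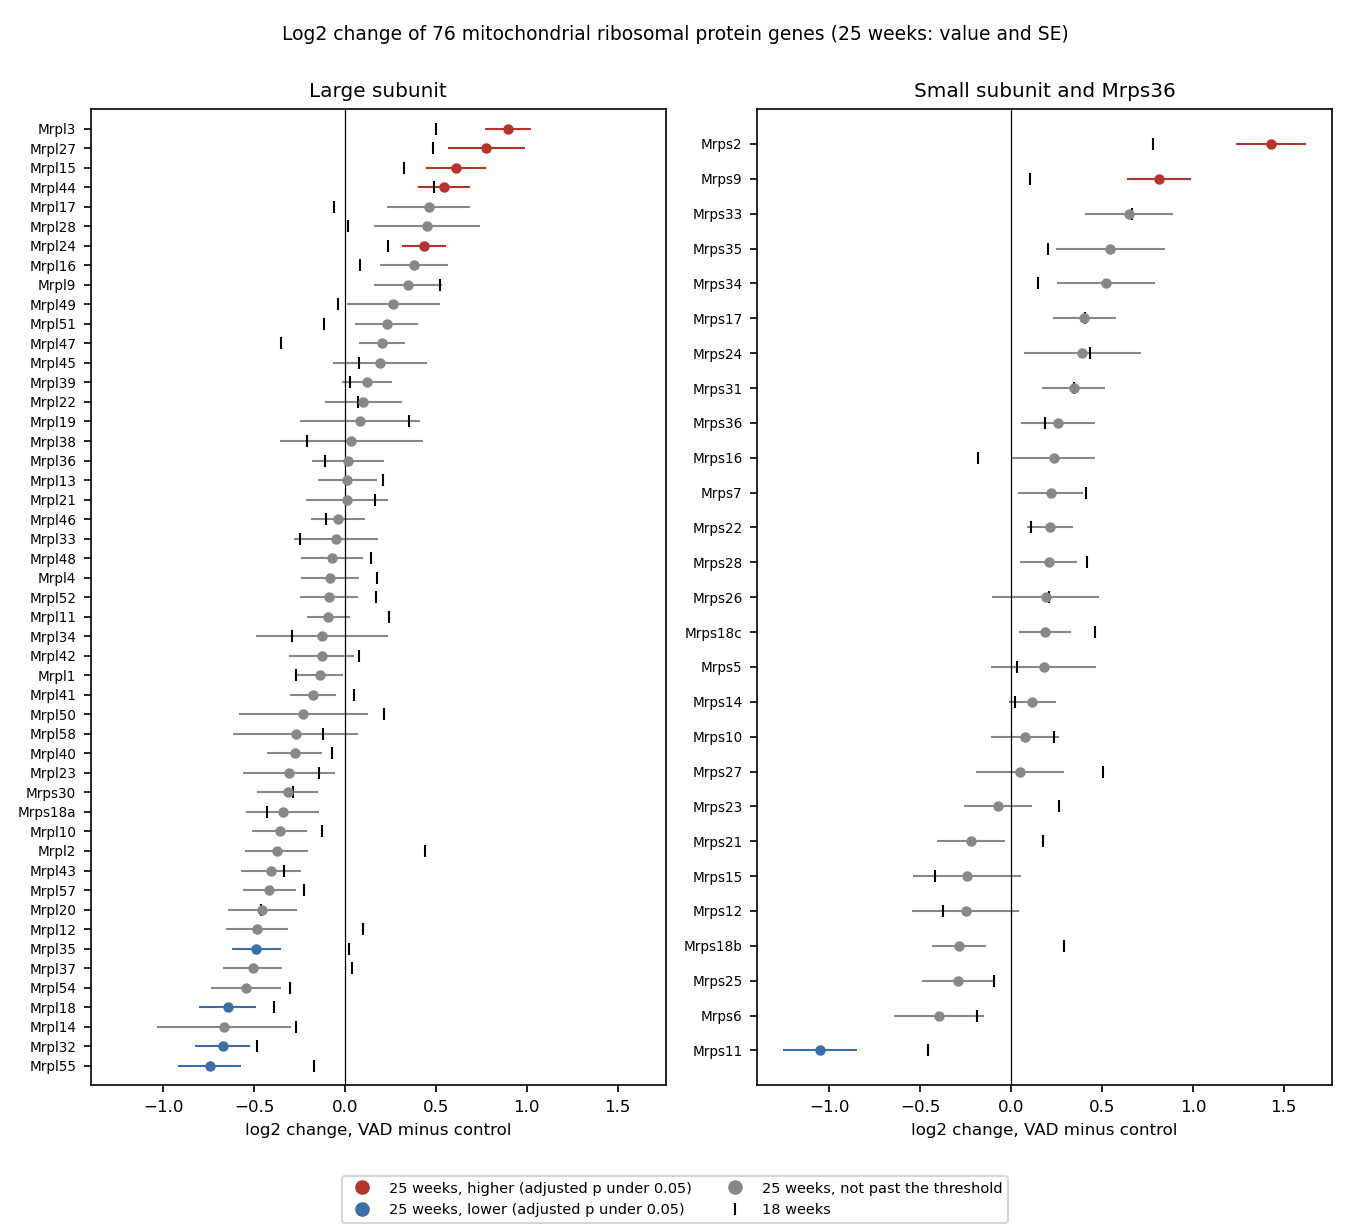
Log2 change against control for each of the 76 mitochondrial ribosomal protein genes, ordered by their value at 25 weeks within the large subunit (left) and within the small subunit with Mrps36 (right). Circles with bars are the value and SE at 25 weeks, red where higher and blue where lower with an adjusted p under 0.05, and black ticks are the values at 18 weeks. Mrps2 at 1.43 and Mrps11 at -1.05 mark the ends, and 4 of the 5 blue genes (all but Mrps11) turn positive on the deposited scale.

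In the large subunit 5 of 49 genes rose and 4 fell at 25 weeks, with a median log2 change of -0.09. These were 18.4%, beside 14.8% of all probe sets and 17% of all genes. In the small subunit 2 of 26 rose and 1 fell (11.5%), with a median of 0.19. Without the dim pair these shares were 20.4% and 19.2%, beside 15.7% of all probe sets. The places described next hold at most 6 genes each, and nothing is read from their shares. Around the peptidyl transferase centre, Mrpl3 and Mrpl27 rose (50% of 4 genes), while Mrpl16 (0.38, limma adjusted p = 0.193) and Mrpl2 (-0.37, adjusted p = 0.172) did not pass. Mrpl3 alone was called there without the dim pair. Around the exit tunnel, Mrpl24 and Mrpl44 rose, out of 6 genes (33.3%) with a median of 0.20. Of these, Mrpl24 alone was called without the dim pair. Of the others there, Mrpl45, which ties the ribosome to the inner membrane, had 0.19 and Mrpl47 had 0.20.

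The stalk that receives translation factors showed no call among its 3 genes. Mrpl12, which is also known to bind the mitochondrial RNA polymerase, measured 7.39, 7.58 and 6.56 on VAD 25-week arrays, against 8.27, 8.12 and 6.58 on control arrays, and 8.11, 8.13 and 8.30 at 18 weeks. The bright VAD 25-week arrays were below the bright controls, whereas the dim arrays differed by -0.02 (VAD minus control). Its change was -0.48 (log2, limma adjusted p = 0.0819), and it passed without the dim pair, at -0.72 with limma adjusted p = 0.0109. Mrpl10 had -0.36 (limma adjusted p = 0.136) and Mrpl11 -0.09.

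Along the path of mRNA and tRNA in the small subunit, Mrps9 rose and Mrps11 fell (50% of 4 genes), both also without the dim pair. Mrps7 (0.22) and Mrps12, the counterpart of the bacterial streptomycin-resistance protein (-0.25), did not pass. Mrps16 (0.23), Mrps22 (0.21) and Mrps27 (0.05), a pentatricopeptide repeat protein, also did not pass. The S18 paralogues occupy different places in the ribosome, and their log2 changes at 25 weeks were -0.34 for Mrps18a, -0.29 for Mrps18b and 0.19 for Mrps18c. Mrpl41, at -0.18, Mrps30, at -0.31, and Mrps36, at 0.26, did not pass.

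By origin, the calls lay mostly among proteins with a bacterial counterpart. Of 45 such genes, 6 rose and 5 fell at 25 weeks (24.4%, beside 14.8% of all probe sets and 17% of all genes). Of 30 proteins specific to mitochondria, 1 rose and 0 fell (3.33%), the riser being Mrpl44. The median log2 changes of the 2 classes were 0.02 and -0.07, and their shares called depended on the dim pair. Without the dim pair they were 11 of 45 genes (24.4%) and 4 of 30 (13.3%), where 15.7% of all probe sets were called, so the shares moved with the arrays used. The difference between the classes was not tested.

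Different probe sets of 1 gene often disagreed. Of the 33 genes with several kept probe sets, 16 had the same sign in all of them at 25 weeks and 17 had both signs, with a median range within a gene of 0.44 on the log2 scale. The widest was Mrps2, where the second probe set had -0.42 ± 0.26 (limma adjusted p = 0.316) against 1.43 for the one that stood for the gene. The second probe set was also the dimmer one, with a mean log2 signal of 4.65 against 6.56. No gene was called both ways, as 0 genes had probe sets called both higher and lower. Counted by probe set, 11 of 131 rose and 5 fell (12.2%, beside 14.8%).

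In Mrpl15, 3 of 5 kept probe sets were called higher, at 0.61, 0.71 and 0.70 on the log2 scale, the latter 2 being prone to cross-hybridisation (_x_at). Its other kept probe sets had -0.006 and 0.77 (limma adjusted p = 0.988 and 0.125). In Mrpl44, a further probe set was called at 1.14 (limma adjusted p = 0.0368). The other probe sets of Mrpl3 had 0.56 and 0.46, that of Mrpl27 0.51 and those of Mrps9 0.39, -0.16 and -0.41. Those of Mrpl35 had 0.48 and 0.59, opposite to the called -0.49. Neither passed, and their mean log2 signals were 4.46 and 3.92, against 8.85 for the called one. Mrpl50 had a called probe set at 1.07 (adjusted p = 0.0350 in limma) while the one that stood for the gene had -0.23 (named after its values were seen). With the mean of a gene's kept probe sets in place of the brightest one, 2 members rose and 4 fell, and Mrps2, Mrpl3, Mrps9, Mrpl27, Mrpl44 and Mrpl35 lost their calls.

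**Figure D4:**
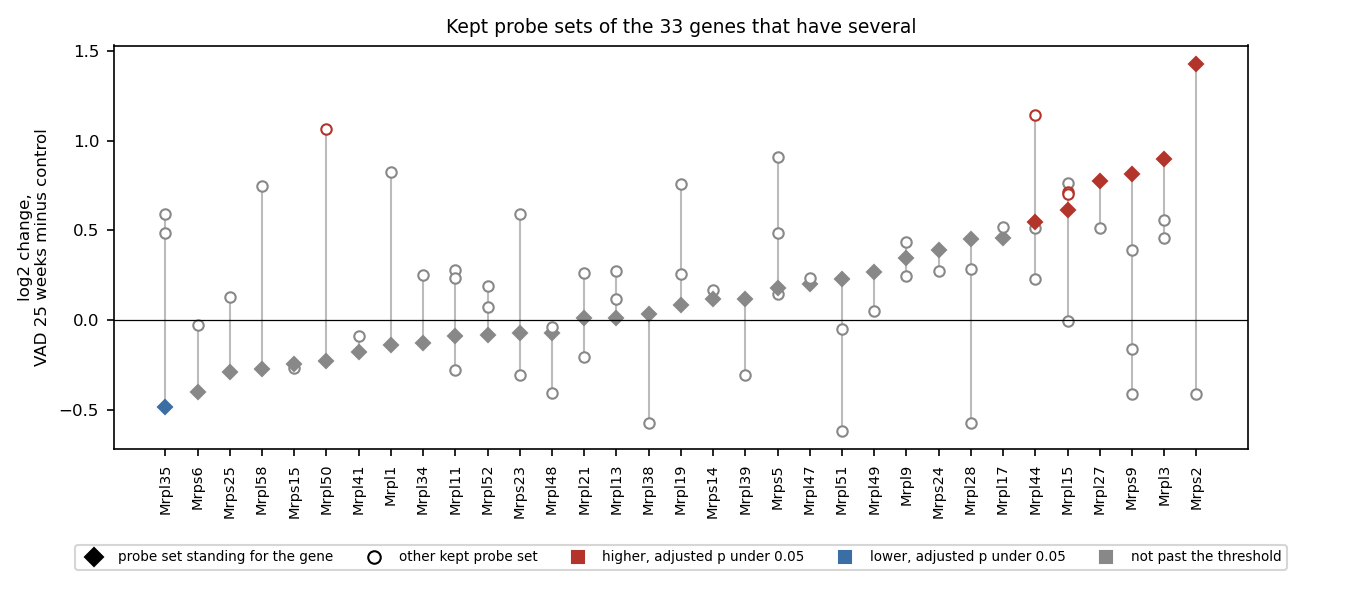
Log2 change at 25 weeks (VAD minus control) of every kept probe set of the 33 mitochondrial ribosomal protein genes that have several. Diamonds stand for the gene in the other results and circles are its other probe sets, red where higher and blue where lower with an adjusted p under 0.05. The line joining the points is longest for Mrps2, from -0.42 to 1.43, and Mrpl35, the blue diamond at -0.49 (positive on the deposited scale), has its other 2 probe sets above 0. In both genes the circles are dimmer probe sets than the diamond and were not called.

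Many members share an upstream region with a gene on the opposite strand. In the RefSeq table, 25 of the 67 members found there (37.3%) had such a neighbour with its start within 1000 bases, beside 16.2% of the genes on the array and 12.3% of all genes in the table. For 21 of these pairs both genes were measured. Outside the family, 20 neighbours were measured, and at 25 weeks 1 of them rose and 3 fell, with a median log2 change of -0.03. The share called was 20.0%, beside 14.8% of all probe sets and 17% of all genes.

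Without the dim pair the same 4 neighbours were called. Of the called members, 4 had a measured neighbour. Mrpl32 and Psma2, a subunit of the 20S proteasome, start 205 bases apart, and Mrpl32 fell by 0.67 on the log2 scale while Psma2 rose by 0.75 ± 0.14 (SE, limma adjusted p = 0.00549). On the deposited scale Mrpl32 itself was higher, at 0.39. Mrps11 and Mrpl46, both members, start 42 bases apart and had -1.05 and -0.04. Mrpl18 and Tcp1, a subunit of the cytosolic chaperonin, start 238 bases apart and had -0.65 and 0.02. Mrpl27 and Eme1 start 48 bases apart and had 0.78 and 0.56, the second with limma adjusted p = 0.203. The called neighbours of members that did not pass were Tmem63b beside Mrpl14 (-1.54 and -0.67), Klc4 beside Mrpl2 (-1.04 and -0.37) and Fau beside Mrpl49 (-0.65 and 0.27). These pairs were named after their values were seen.

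**Figure D5:**
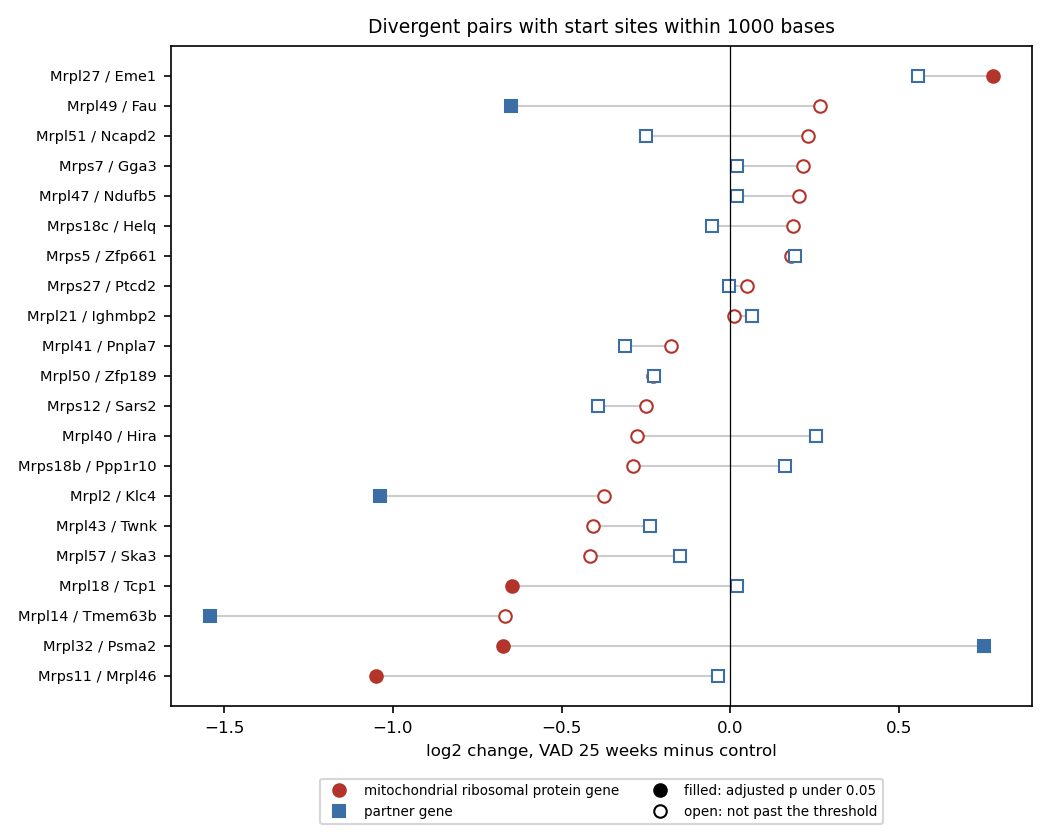
Log2 change at 25 weeks (VAD minus control) of 21 pairs of a mitochondrial ribosomal protein gene (red circles) and the neighbour that starts within 1000 bases on the opposite strand (blue squares). Filled symbols have an adjusted p under 0.05 in limma. In 1 pair, Mrpl32 with Psma2, both symbols are filled, and they lie on opposite sides of 0, at -0.67 (0.39 on the deposited scale) and 0.75.

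The other genes of mitochondrial translation gave a mixed account at 25 weeks. Of 4 measured ribosome subunits with other symbols, 0 passed, and Gadd45gip1 had 0.53, Chchd1 -0.19 and Dap3 -0.14 on the log2 scale. Of 10 translation factors 0 passed, among them the elongation factor Tufm (-0.59, limma adjusted p = 0.113), the initiation factor Mtif2 (0.37) and the recycling factor Mrrf (-0.25). Of 21 factors that assemble the ribosome 0 passed, and Trub2 had 0.48, Mettl17 0.74 and Rpusd4 0.85. The median over the 21 was 0.10, with 14 positive and 7 negative values. In each of these lists 0% were called, beside 14.8% of all probe sets. Without the dim pair Tufm fell (10% of the translation factors) and Eral1 rose (4.76% of the assembly factors), beside 15.7% of all probe sets called.

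Among 16 mitochondrial aminoacyl-tRNA synthetases, the enzymes that charge tRNAs with their amino acids, 4 rose and 0 fell. The share called was 25%, beside 14.8% of all probe sets and 17% of all genes. Nars2, for asparagine, measured 5.55, 5.47 and 4.46 on VAD 25-week arrays, against 4.08, 4.07 and 2.14 on control arrays. No VAD array overlapped with a control, and the change was 1.73 ± 0.28 (log2, SE, limma adjusted p = 0.00319). Rars2, Iars2 and Lars2 rose by 0.74, 0.74 and 0.97. The median over the 16 was 0.18, with 8 positive and 8 negative values. Wars2, for tryptophan, had -1.51 (limma adjusted p = 0.0822), with every VAD array below every control array. Without the dim pair the same 4 genes were called (25%, beside 15.7% of all probe sets).

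Among 15 genes for the maintenance and transcription of mitochondrial DNA, 1 rose and 1 fell (13.3%, beside 14.8% of all probe sets), with a median of 0.34. Ssbp1, the single-stranded DNA-binding protein of mitochondria, measured 8.11, 8.31 and 8.59, against 6.56, 6.28 and 7.64 in controls, again without overlap. Its change was 1.51 ± 0.25 (log2, SE, limma adjusted p = 0.00359). Polg, the mitochondrial DNA polymerase, had -0.51 (limma adjusted p = 0.0422). Both were called without the dim pair, among 3 higher and 1 lower genes (26.7%, beside 15.7% of all probe sets). Of 41 cytosolic ribosomal proteins, 2 rose (Rpl27a by 0.90, Rpl10a by 0.58) and 2 fell (Rpl13a by 0.56, Rpl39 by 0.99). The share called was 9.76%, beside 14.8% of all probe sets and 17% of all genes. The 41 genes had a median of -0.02 and an interquartile range of 0.32, narrower than the 0.53 of the mitochondrial set, without matching for signal level. Of these, 5 rose and 1 fell without the dim pair. The cytosolic share called without the dim pair was 14.6%, beside 15.7% of all probe sets. At 18 weeks 0 genes of the mitochondrial lists passed, and the cytosolic Rps3 rose by 0.69 (limma adjusted p = 0.0347).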

How the data were processed

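Expression was measured on 9 Affymetrix arrays, 3 per group. The authors deposited linear MAS5 intensity values, 1 per probe set and array. The method comes from the submitters' processing notes and the scale from the values, while MAS5's version and scaling target were not found in the sources. The trimmed means (2% off each end) differ between arrays, so no common target is shared. The precision is limited by the number of arrays.

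Signals were transformed as log2(signal + 3.26), the pseudocount being the 25th percentile of all deposited signals, which understates changes of low signals, and were quantile-normalized over all 45101 probe sets. After removal of 64 control probe sets, a filter at the 40th percentile of mean signal kept 27022. Of the 45101 probe sets, 34958 had 1 symbol in the platform table, 932 several and 9211 none. All 76 member symbols were unchanged in RefSeq's table for GRCm38.p6. Each gene's brightest kept probe set stood for it, with sets prone to cross-hybridisation (_s_at, _x_at) used last. Summed marker signals are normalized signals less the pseudocount.

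The fit used limma 3.58.1 (R 4.3.3, lmFit, eBayes with a variance trend) over all 9 arrays, with terms for group and for the dim pair, arrays with a trimmed mean under 0.5 of the median (5 residual degrees of freedom, 6 without the pair's term). A call is a Benjamini-Hochberg adjusted p under 0.05 over all kept probe sets, and ± gives the SE. The pair's offset is estimated from the VAD 25-week and control arrays, so VAD 18-week values differ from simple subtraction of means. Replicate numbers were not taken to pair samples. Members, lists, the dim-pair term and the rule for named genes were chosen with earlier results of these data known. That rule takes up to 10 called members in each direction per comparison (or, with fewer than 5, those of smallest p), members fixed for their role, and up to 3 genes of other lists by smallest p. Genes outside it are marked where named, and Lars2, Rpl39, Wars2 and Eral1 were added after their values were seen. Alternatives were no dim-pair term, leaving out the pair, median centring, the deposited scaling, a pseudocount of 16, no filter, a replicate block, array weights, no variance trend, the mean of a gene's probe sets, and leaving out each array. Leaving out both poly-A-rich arrays, and the counts of places, lists and neighbours without the dim pair, were added after seeing the data.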

Additional observations from a re-analysis of the deposited data

Results flagged for a closer look

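Poly-A control probe sets, which read bacterial transcripts that can be added before labelling, lie outside the comparisons of genes. Their mean signal over 27 probe sets was 270.2 on VAD 25-week replicate 1 and 337.6 on VAD 25-week replicate 2, against at most 9.15 on any control array. Both values stand out for being above the level in the control arrays. Without these 2 arrays the VAD 25-week group is reduced to its dim array. The fitted change against control is then the dim VAD array minus the dim control array, and no spread between dim arrays enters its test. No counts are given for that fit. Groups of 3 arrays are too small for a check of single outlying arrays.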

How the results depend on the processing

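Limits: the comparison at 25 weeks rests on 3 arrays per group with 1 dim array in each, and without the dim-pair term 0 members were called. Directions are relative to each array's distribution, and the arrays' number and, on the dim pair, low signal limit what can be called.

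At 25 weeks against control (main counts 7 higher and 5 lower), the counts were 0 and 0 with no dim-pair term, 6 and 9 without the dim pair, 7 and 1 with median centring, 33 and 0 with deposited scaling, 9 and 10 with array weights, 3 and 3 with no variance trend and 2 and 4 with the mean of a gene's probe sets. Leaving out each replicate gave 2 to 7 higher and 1 to 8 lower. The median log2 change of the members was 0.14 with median centring and 0.99 with deposited scaling, where all probe sets had 0.92. On that scale the sign reversed for Mrpl32 (0.39), Mrpl55 (0.33), Mrpl18 (0.39) and Mrpl35 (0.49), and Mrpl35 also reversed to 0.20 with the mean of its probe sets. The pseudocount of 16 gave 7 and 5 and no filter 6 and 5.

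At 18 weeks against control (0 and 0), 1 gene, Mrpl3, was higher without the dim pair and with array weights, and leaving out each replicate gave 0 to 1 higher and 0 lower. The median was 0.25 with no dim-pair term and -0.03 with median centring. Between VAD 25 weeks and VAD 18 weeks (0 and 0), the counts were 2 higher and 1 lower without the dim pair. They were 5 and 0 on the deposited scale and 5 and 4 with array weights, and leaving out each replicate gave 0 to 1 in each direction. The median there was -0.22 with no dim-pair term, 0.16 with median centring and 0.84 with deposited scaling. For single members, 30 named genes in 3 comparisons under 20 alternatives gave 1679 values on the same side of the threshold (where values that pass in neither fit may differ in sign), 84 that lost a call, 32 that gained one and 5 called values that reversed. Apart from settings that use fewer arrays, the cause was not tested.

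With the replicate number as a further block, 5 members were higher and 4 lower at 25 weeks, and Mrpl15, Mrpl27 and Mrpl35 lost their calls. Deviations of same-numbered arrays from their group means correlated at -0.00 to 0.07 between VAD 18 weeks and control. Between VAD 25 weeks and control they correlated at 0.52 to 0.69, where replicate 3 is the dim array of both groups. Once the dim-pair offset was removed, the values for replicates 1 and 2 there were -0.37 and -0.36. That removal makes the remainders of the dim arrays cancel (-1 for replicate 3) and so pushes those of replicates 1 and 2 apart. These values therefore cannot show whether same-numbered arrays belong together.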
